A study of Mus musculus with 42 samples.

Results

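The interleukin-6 (IL-6) family genes described here were the ligands Il6, Il11, Lif and Osm, the receptor genes Il6ra, Il11ra1, Osmr, Lifr and Il6st, and the feedback inhibitor Socs3. They were taken by name from 12 RNA sequencing tables, and they made up 10 of the 19206 genes named in any of these tables. The sorted cells were Gli1-tdTomato+ stroma and Muc2-mCherry+ goblet cells, each taken from proximal and from distal colon at day 30 after tamoxifen, with 2 libraries per group. All of these mice, controls included, carried Gli1-CreERT2, an inducible Cre driven by the Gli1 promoter. Stromal cells came from GWTT mice (Gli1-CreERT2 with Rosa26-tdTomato), from GS4T mice, which also carried Smad4 fl/fl, and from GA3T mice, which also carried Alk3 fl/fl (Alk3 is the type I BMP receptor Bmpr1a). Goblet cells came from GWTM2 mice (Gli1-CreERT2 with Muc2-mCherry), GS4M2 mice (with Smad4 fl/fl) and GA3M2 mice (with Alk3 fl/fl), so that in goblet libraries the gene was deleted in neighbouring stromal cells and not in the cells sequenced. The mice were 2 to 4 months old and of both sexes. Colonic organoids of wild-type mice, which are cultured epithelium without stroma, were left untreated or given 10 nM IL-1α with IL-1β or 10 nM IL-17A for 12 h or 72 h, with 3 libraries per group. The labels do not say whether libraries of a group came from separate animals or cultures. The p-values thus measure only the spread between these libraries, which may be technical where libraries are of 1 sex. Where a group held libraries of both sexes, given below, they cannot all come from 1 animal. Their spread then also holds any difference between the sexes.

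IL-6 family cytokines act through receptors that share the signal transducer gp130, the product of Il6st. IL-6 and IL-11 each bind a ligand-specific chain (Il6ra, Il11ra1) and signal through gp130 pairs, whereas LIF uses gp130 with LIFR and oncostatin M (Osm) uses gp130 with OSMR or, less efficiently in mice, LIFR. The receptors activate Jak kinases and Stat3, and Stat3 induces Socs3, which binds gp130 and shuts the signal off. In the gut, fibroblasts are a known source of IL-6, IL-11 and LIF, oncostatin M comes mostly from myeloid cells, and Stat3 in epithelium drives acute-phase and antimicrobial genes.

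Il6 lies at chr5:30013114-30019981, Il11 at chr7:4772373-4782859, Osm at chr11:4236420-4241026 and Lif at chr11:4257557-4272514 (GRCm38, GENCODE). Lif and Osm are therefore neighbours on chromosome 11, where Socs3 also lies at chr11:117966079-117970047. Il6ra lies at chr3:89864059-89913196, Il11ra1 at chr4:41699989-41769474, Il6st at chr13:112464070-112510086, Osmr at chr15:6813577-6874969 and Lifr at chr15:7090614-7197489. Near-identical copies of Il11ra1 exist in the mouse, so its reads are uncertain.

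RefSeq promoters (GRCm38.p6) were found for 9 of the 10 genes, with 12 starts in all, and none was matched for Osm. The 250 bases before each start were searched on both strands for a Stat motif, TTCNNNGAA, and for the AP-1 motif TGANTCA, and no start held both. The Stat motif was found at 1 start (Socs3) and the AP-1 motif at 3 (Il6, Il11 and Lif), whereas over 32851 promoters 7.02% held the Stat motif and 6.75% the AP-1 motif. The 4 promoters with a motif are given because the Il11, Il6, Lif and Socs3 values carry most of the comparisons that follow; capitals mark the motif.
Il11 (chr7:4778142-4778391, minus strand, AP-1): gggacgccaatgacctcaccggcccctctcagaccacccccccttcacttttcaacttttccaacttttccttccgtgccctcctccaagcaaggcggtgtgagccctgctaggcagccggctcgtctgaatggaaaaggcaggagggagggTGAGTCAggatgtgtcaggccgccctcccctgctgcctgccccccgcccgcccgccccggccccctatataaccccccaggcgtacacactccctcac
Il6 (chr5:30012864-30013113, plus strand, AP-1): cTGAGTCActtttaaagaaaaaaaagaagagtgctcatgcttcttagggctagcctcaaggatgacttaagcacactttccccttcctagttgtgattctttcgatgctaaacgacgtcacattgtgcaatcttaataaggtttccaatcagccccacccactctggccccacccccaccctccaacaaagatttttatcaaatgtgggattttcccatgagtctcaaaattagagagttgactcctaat
Lif (chr11:4257318-4257567, plus strand, AP-1): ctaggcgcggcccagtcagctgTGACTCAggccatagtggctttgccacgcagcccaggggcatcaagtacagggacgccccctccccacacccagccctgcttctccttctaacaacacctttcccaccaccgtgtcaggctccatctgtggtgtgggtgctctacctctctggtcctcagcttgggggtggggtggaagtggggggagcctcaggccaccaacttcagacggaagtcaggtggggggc
Socs3 (chr11:117969367-117969616, minus strand, Stat): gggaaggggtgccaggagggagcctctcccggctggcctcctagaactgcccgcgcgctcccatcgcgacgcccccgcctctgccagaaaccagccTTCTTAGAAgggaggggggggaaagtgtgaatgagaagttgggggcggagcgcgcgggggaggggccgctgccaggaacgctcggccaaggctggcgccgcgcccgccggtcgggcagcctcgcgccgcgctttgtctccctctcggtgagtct
A match describes these letters only and is not a measured binding site. The AP-1 motif of Il11 began 98 bases before the start, that of Il6 249, that of Lif 228, and the Stat motif of Socs3 154 bases before it.

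Each library held 14222902 to 23686940 reads on named genes. All 9 stromal markers were above 1 CPM (reads of a gene scaled to a common library total) in every Gli1+ library, and all 8 epithelial and all 7 goblet markers were so in every Muc2+ library, whereas the stromal markers that could be read there, at most 6 of 9, summed to at most 30.6 CPM (Lum, Thy1 and Gli1 were not analysed there). In the targeted genes, Smad4 fell by 1.09 on the log2 scale in proximal GS4T cells (adjusted p = 0.0101) and differed by -0.96 in distal ones (adjusted p = 0.0424), and Bmpr1a differed by -0.61 and -0.69 in proximal and distal GA3T cells without passing the test. Gli1+ libraries also held reads of other cell types that moved with genotype: the summed level of 8 neutrophil markers was 2.39 to 6.80 CPM in GWTT, 14.7 to 53.3 in GA3T and 78.2 to 264 in GS4T libraries. Of these, Ly6g was at 0 in both proximal and Cxcr2 in both distal GWTT libraries, and Ltf in GA3T and Cxcr2 in distal GA3T cells were not analysed here. The 10 macrophage markers summed to 201 to 781 in GWTT and 845 to 2450 in knockout libraries, and the 8 epithelial markers to 21.9 to 557 and 445 to 1690. The 4 general leukocyte markers summed to 129 to 238 in all groups. The 5 B and plasma cell markers went down instead, from 1560 to 2780 CPM in proximal and 3490 to 4820 in distal GWTT libraries to 426 to 827 and 111 to 447 in GS4T and 891 to 935 and 1800 to 1950 in GA3T, where Ms4a1 was not analysed in proximal GA3T cells. The stromal markers moved too. Gli1, the gene of the sort, was at 38.0 to 99.6 CPM in GWTT and 44.5 to 65.6 in distal knockout libraries, but at 91.0 and 1.4 in libraries 1 and 2 of proximal GS4T and 72.2 and 1.98 in those of proximal GA3T cells. Dcn, a matrix proteoglycan gene, was at 10800 and 11200 CPM in proximal GWTT, 2940 to 5230 in proximal GS4T and 3940 to 6820 in proximal GA3T libraries, and Lum at 1560 to 1840, 365 to 671 and 730 to 1080. The part of these marker levels in the values that follow was not tested. By Xist and Y-linked genes, library 1 of GWTT proximal cells and library 1 of each GA3T group were male and the other stromal libraries female, and library 1 of each GWTM2 group was female and the other goblet libraries male. In bulk samples, fewer cells of a type and less RNA per cell cannot be told apart.

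In control cells, the receptor genes, Il11 and Socs3 were higher in stroma than in epithelium, whereas Lif levels overlapped. Per length, as the CPM value per kilobase of exon (RPKM), the highest level in GWTT stromal cells was that of Socs3, 425 ± 129 (SD, n = 2) in proximal and 337 ± 32 in distal cells. Il6st followed with 71.3 ± 2.20 and 70.0 ± 1.10, well above the ligand-specific receptor chains, of which Il11ra1 was at 25.2 ± 4.66 and 34.2 ± 2.68 RPKM. Il6ra was at 14.0 ± 2.89 and 9.40 ± 0.15, Osmr at 10.5 ± 1.15 and 11.9 ± 0.34, and Lifr at 7.81 ± 0.25 and 8.97 ± 0.49 RPKM, so that these 3 chains were close together in each segment. Among ligands, Il6 stood highest at 39.0 ± 13.3 RPKM in proximal and 15.7 ± 5.15 in distal cells, followed by Lif at 7.01 ± 2.03 and 5.15 ± 0.16. Il11 and Osm were the least expressed, at 1.17 ± 0.05 and 0.95 ± 0.03 RPKM in proximal cells.
Of the receptor genes, Il6st and Il11ra1 stood highest in epithelial cells. Il6ra was read too, at 4.69 and 1.95 CPM in proximal and 13.8 and 11.1 CPM in distal GWTM2 libraries. In untreated organoids at 12 h it was at 1.23 to 1.74 CPM. GWTM2 goblet cells held Il6st at 5.84 ± 0.56 RPKM in proximal and 5.71 ± 1.31 in distal cells and Il11ra1 at 3.62 ± 0.04 and 4.09 ± 0.63, but Osmr at 0.026 ± 0.022 and 0.12 ± 0.16 and Lifr at 0.15 ± 0.09 and 0.08 ± 0.05. Untreated organoids at 12 h were alike in this, with Il6st at 5.36 ± 0.55 (n = 3), Il11ra1 at 2.08 ± 0.36, Lifr at 0.059 ± 0.024 and Osmr at 0.032 ± 0.017 RPKM, and the last 2 overlapped. Socs3 was higher than any receptor gene in goblet cells, at 9.26 ± 2.77 RPKM in proximal and 16.4 ± 19.1 in distal GWTM2 cells, and was at 1.47 ± 0.54 in the organoids. Of the ligands read in epithelium, Lif was at 4.05 ± 1.66 and Il11 at 0.074 ± 0.042 RPKM in these organoids. In CPM, Lif was at 11.3 to 25.5 in these organoids, 8.42 and 3.53 in proximal and 24.0 and 4.38 in distal GWTM2 libraries. Stromal Lif was at 36.8 and 24.3 CPM in proximal and 22.9 and 21.9 in distal GWTT libraries. Il6 and Osm were not analysed here in goblet cells or organoids.

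**Figure D1:**
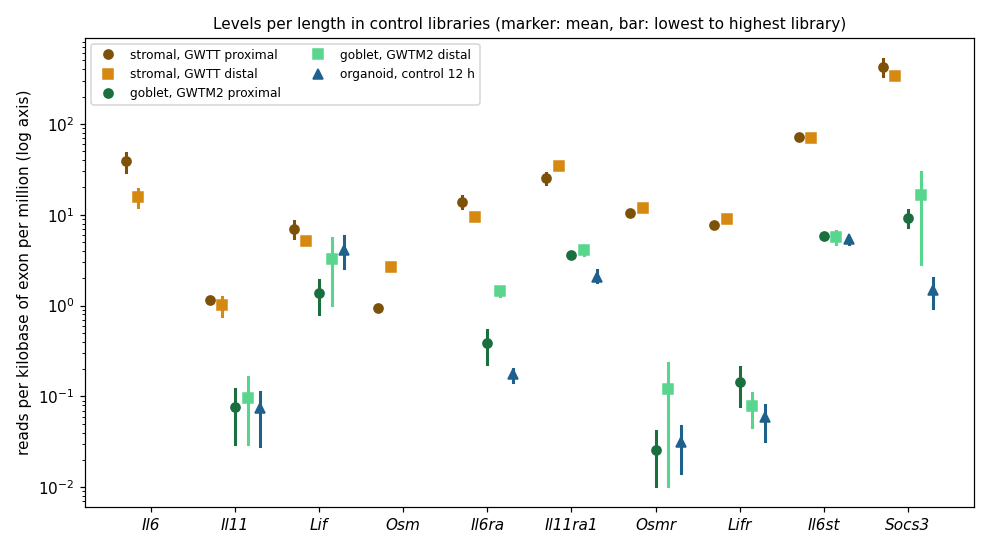
Levels of the 10 genes in control libraries, in RPKM (CPM per kilobase of exon) on a log axis, where markers are group means and bars run from the lowest to the highest library. Il6st and Il11ra1 were present in stroma and epithelium, whereas Osmr and Lifr averaged 7.81 RPKM or more in stromal cells and were at or under 0.234 in goblet cells and organoids.

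To learn what deleting Smad4 or Alk3 in the stroma did to the family, each knockout was compared with GWTT within its segment by limma on log2(normalized count + 1). Calls needed an adjusted p under 0.05 with a log2 difference of at least 1 in either direction. In proximal GS4T cells 3 of the 10 genes were called (Il11 and Osm higher, Socs3 lower), against 9.61% of all genes tested. In distal GS4T cells 2 of 10 (Il11 and Osm, both higher) were called against 14.0% of all genes. In GA3T cells 1 of 10 (Il11) was called in the proximal colon against 0.358% of all genes, and 0 of 10 in the distal colon, where limma called 0% of all genes. At an unadjusted p under 0.05 with the 2-fold limit these GA3T counts were 3 in the proximal (Il11, Osm and Socs3, against 9.46% of all genes) and 2 in the distal colon (Osm and Il11, against 7.77%). EdgeR called none in either segment, and DESeq2 called the same 3 and 2, against 6.29% and 5.03%. Knockouts of a segment share their GWTT libraries, so their values stand side by side and are not independent of each other. With 2 libraries a group, separation is common: 65.4% and 67.5% of all genes did not overlap between groups in proximal and distal GS4T cells, and 56.4% and 54.3% in GA3T cells. The study also picked Il11 and Il6 for display from these samples, so their directions here are not independent evidence.

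Il11, the ligand that signals through Il11ra1 and gp130, was called in 3 of the 4 stromal comparisons. In proximal cells its normalized count was 42.4 and 38.9 in the GWTT libraries and 502 and 383 in the GS4T libraries. In the table that holds GA3T the same controls read 44.6 and 40.9, and the GA3T libraries 449 and 666. Every proximal knockout library was thus above every control library, with log2 differences of 3.40 ± 0.25 (SE, adjusted p = 0.00523) in GS4T and 3.65 ± 0.28 (adjusted p = 0.0489) in GA3T.
In distal cells Il11 read 26.4 and 42.6 in GWTT and 2043 and 811 in GS4T libraries, a mean 41.4 times higher and a log2 difference of 5.22 ± 0.47 (adjusted p = 0.00229). Distal GA3T libraries read 217 and 1420.4 against 30.1 and 48.5, both above the controls but far apart, with a log2 difference of 3.83 ± 0.88 (adjusted p = 0.146). The lower library was the male one. Without it the knockout arm was 1 library, assumed to vary like the controls, and the difference was 5.18 (adjusted p = 0.02). Il11 in distal GS4T cells was called in 12 of 12 alternative settings. In proximal GS4T cells it was called in 11 of 13 and lost when either knockout library was left out (adjusted p up to 0.09), at 3.59 (adjusted p = 0.058) without library 2, the one with Gli1 at 1.4 CPM. In proximal GA3T cells it was called in 8 of 13, and lost under edgeR, a pseudocount of 0.1, upper-quartile scaling and without GWTT library 1 or GA3T library 2 (adjusted p up to 0.18). Without GA3T library 2, the one with Gli1 at 1.98 CPM, it was 3.36 (adjusted p = 0.17).

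Osm, the myeloid-associated ligand of OSMR, had the largest proximal difference of the family in GS4T cells. Its normalized count was 37.2 and 34.8 in proximal GWTT and 504 and 442 in GS4T libraries, 13.1 times higher in the mean (log2 difference 3.68 ± 0.23, adjusted p = 0.00412). In the GA3T table it read 39.2 and 36.6 in the controls and 216 and 549 in the knockout, with a log2 difference of 3.15 ± 0.49 that did not pass the test (adjusted p = 0.0753). The groups did not overlap in either comparison.
Distal GWTT cells started from a higher Osm level, 91.9 and 106.5, and GS4T libraries read 686 and 269, a log2 difference of 2.11 ± 0.44 (adjusted p = 0.0235) that was lost without either GWTT library or without GS4T library 1. Distal GA3T libraries read 244 and 425 against 105 and 121, with a log2 difference of 1.51 ± 0.32 (adjusted p = 0.133). The macrophage and neutrophil marker sums given above were higher in the same knockout libraries, and their part in the Osm values was not tested.

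Il6 and Lif were not called in any stromal comparison. Il6 lay below the controls in proximal knockout cells and overlapped with them in distal ones. Proximal GWTT libraries read 1987 and 1191 against 389 and 857 in GS4T, a log2 difference of -1.41 ± 0.43 (adjusted p = 0.0884), and 2091 and 1252 against 1078 and 436 in GA3T, a difference of -1.24 ± 0.49 (adjusted p = 0.237). In distal cells the GWTT libraries read 479 and 762 and GS4T 1317 and 529.6, so the groups overlapped, and the difference was 0.47 ± 0.45 (adjusted p = 0.485). Distal GA3T libraries read 627 and 1964 against 547 and 867, and overlapped likewise (0.69 ± 0.56, adjusted p = 0.543). DESeq2 called the proximal GS4T value, at -1.36 (adjusted p = 0.0096), where it called 13.1% of all genes.
Lif, which acts through LIFR and gp130, read 621 and 403 in proximal GWTT and 529 and 753 in GS4T libraries, and the groups overlapped (0.33 ± 0.28, adjusted p = 0.44). Its other differences were -0.03 ± 0.24 in proximal GA3T, 0.69 ± 0.26 in distal GS4T (adjusted p = 0.114) and 0.43 ± 0.53 in distal GA3T cells.

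**Figure D2:**
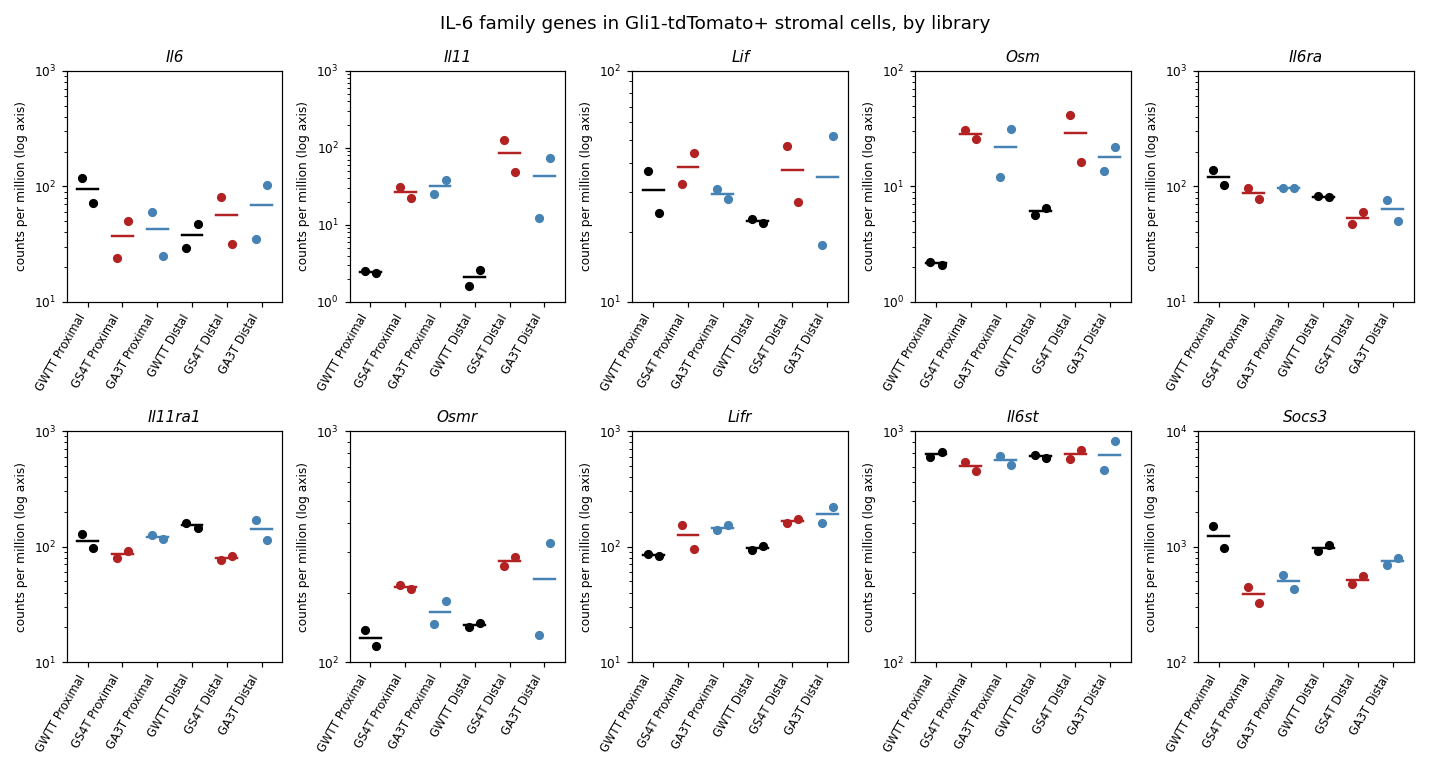
CPM (log axis) of the 10 genes in the 12 Gli1+ stromal libraries, where points are libraries and lines group means (black GWTT, red GS4T, blue GA3T). Il11 lay between 1.61 and 2.62 CPM in the 4 GWTT libraries and between 12.2 and 125 in the 8 knockout libraries, so that the groups did not overlap.

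Of the receptor genes, none passed the 2-fold limit. Osmr, the oncostatin M receptor chain, read 2319 and 1949 in proximal GWTT and 3509.9 and 3544 in GS4T libraries, 1.65 times higher (log2 difference 0.73 ± 0.12, adjusted p = 0.0215). In distal cells it read 2321 and 2393 in GWTT and 4279 and 4751 in GS4T, 1.92 times higher (0.94 ± 0.11, adjusted p = 0.00436), so that both knockout libraries lay above both controls in each segment. In GA3T the differences were 0.38 ± 0.16 in proximal cells (adjusted p = 0.258) and 0.52 ± 0.45 in distal cells, where library 2 read 6305 and library 1, at 2344, lay below both controls (2648 and 2723).
Lifr, the LIF receptor chain, was higher in all 8 knockout libraries than in the controls of the same table. Distal GWTT libraries read 1525 and 1631 and GS4T 2622 and 2909.8, a log2 difference of 0.81 ± 0.11 (adjusted p = 0.00689). The differences were 0.52 ± 0.21 in proximal GS4T (adjusted p = 0.155), 0.80 ± 0.11 in proximal GA3T (adjusted p = 0.0704) and 0.95 ± 0.20 in distal GA3T cells (adjusted p = 0.133).
Il11ra1, the IL-11 receptor chain, went the other way from its ligand in distal GS4T cells, where it read 2644 and 2343 in the controls and 1249.8 and 1386 in the knockout (-0.92 ± 0.12, adjusted p = 0.00589). It was -0.39 ± 0.17 in proximal GS4T (adjusted p = 0.191) and 0.12 ± 0.17 and -0.12 ± 0.18 in proximal and distal GA3T cells, where the groups overlapped. Il6ra, the IL-6 receptor chain, was below the controls in every knockout library, with log2 differences from -0.59 ± 0.15 in distal GS4T (adjusted p = 0.0413) to -0.30 ± 0.17 in proximal GA3T cells. Il6st read 13095 and 13419 in proximal GWTT and 11948 and 11500.5 in GS4T libraries (-0.18 ± 0.12), and its other 3 differences lay between -0.08 and 0.05, with 95% intervals that stayed within -0.56 to 0.57.

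Socs3, the inhibitor that Stat3 induces and the most abundant member, was lower in the knockouts. In proximal cells it read 25267 and 16017 in GWTT and 7286 and 5526 in GS4T libraries, a mean of 0.31 times the control (log2 difference -1.66 ± 0.27, adjusted p = 0.0205). Proximal GA3T libraries read 10136 and 7575 against 26584 and 16840.3, which did not pass the test (-1.27 ± 0.28, adjusted p = 0.117). In distal cells the controls read 14896 and 16876 and GS4T 7742.5 and 9383.5, a difference of -0.90 ± 0.15 (adjusted p = 0.0131) that was under the 2-fold limit, and GA3T read 12279.7 and 15428 against 16993.5 and 19205 (-0.39 ± 0.19, adjusted p = 0.342). In all 4 comparisons both knockout libraries lay below both controls. The proximal GS4T call for Socs3, like that for Osm, was lost when either knockout library was left out (adjusted p up to 0.13 and 0.082). Without library 2, the one with Gli1 at 1.4 CPM, Socs3 was at -1.47 and Osm at 3.77. The B and plasma cell marker sum given above was lower in the same knockout libraries, and its part in the Socs3 and Il6 values was not tested.

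**Figure D3:**
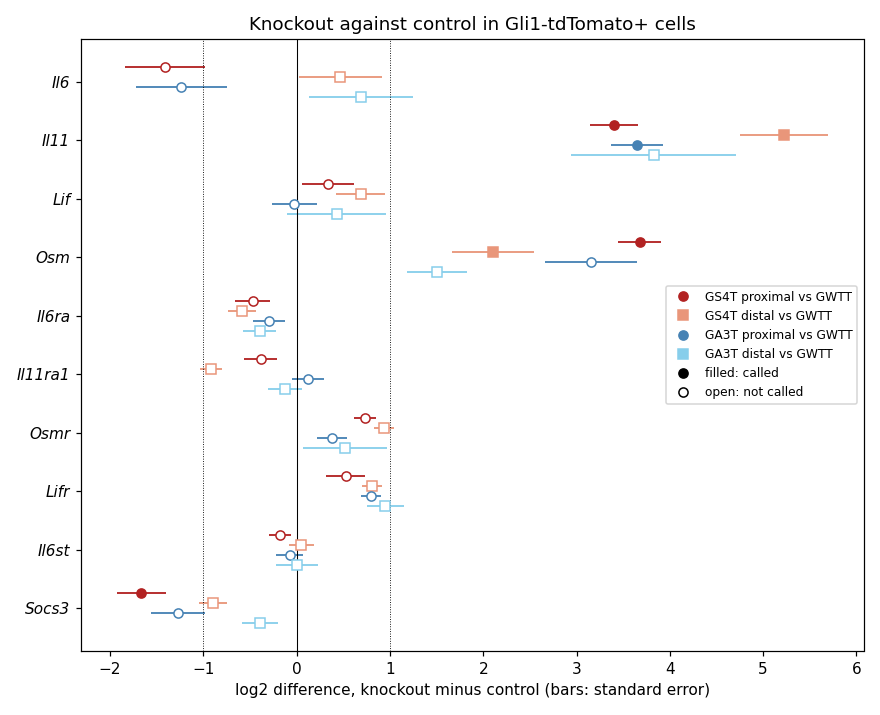
Log2 differences between knockout and GWTT for the 10 genes in the 4 stromal comparisons, with standard errors as bars, filled markers for called genes and dotted lines at the 2-fold limit. Il11 lay at 3.40 to 5.22, Osm at 1.51 to 3.68, and Il6st within 0.18 of 0.

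Other genes of the pathway were counted from lists of 4 further receptors, 11 kinases, Stats and shedding enzymes, 8 inhibitors and 20 known Stat3 targets. Kinases, Stats and shedding enzymes (11 tested, among them Jak1, Stat3 and Adam17) had no call in any stromal comparison, with a median log2 difference between -0.04 and 0.04. Among receptors, Il31ra fell in proximal GS4T cells from 96.3 to 10.7 (-3.18 ± 0.63, adjusted p = 0.0329), a call held in 8 of 13 alternatives (adjusted p up to 0.14) and lost with a mean of at least 50, with sex as a covariate and without GWTT library 1 or either GS4T library. Of 8 inhibitors, Socs1, a Jak inhibitor, fell in GS4T cells from 581.5 to 152 in the proximal (-1.94 ± 0.18, adjusted p = 0.00715) and from 392 to 160.5 in the distal colon (-1.30 ± 0.21, adjusted p = 0.0105), calls held in 11 of 13 and 10 of 12 alternatives and lost without either GS4T library in the proximal and without either GWTT library in the distal colon.
The Stat3 target list did not move one way. In proximal GS4T cells 9 of 20 targets were called, with a list median of 1.08 against 0.02 over all genes: the acute-phase genes Lcn2 (5.88 ± 0.30), Saa3 (4.97 ± 0.50), Lrg1 (3.23 ± 0.57) and Serpina3n (2.64 ± 0.27), the protease inhibitor Timp1 and the NF-kappaB partner Bcl3 rose, while the early-response genes Fos (-1.31 ± 0.16) and Junb (-1.31 ± 0.19) and Myc (-1.55 ± 0.32) fell. Over all genes 9.61% were called there. These 9 calls held in 11 or 12 of 13 alternatives. All were lost without GS4T library 1, and all but Lcn2 and Saa3 also without library 2. In distal GS4T cells 13 of 20 were called against 14.0% of all genes, with a median of 1.43. Those that rose included Lcn2 (7.27 ± 0.69), the antimicrobial lectins Reg3g (5.84 ± 0.93) and Reg3b (5.41 ± 0.88), Saa3 (5.37 ± 0.88) and Saa1 (4.54 ± 0.29), and those that fell were Fos (-1.12 ± 0.23) and Junb (-1.05 ± 0.20). The distal calls of Saa1, Lcn2, Bcl3 and Reg3g held in 12 of 12 alternatives and the others in 9 or 10 of 12. Lcn2 in the proximal and Reg3g in the distal colon entered the test only through the knockout libraries, their control means being 8.75 and 0.97.
In GA3T cells 1 target was called in the proximal (Lcn2, 5.62 ± 0.42) and 0 in the distal colon, with medians of 0.97 and 0.41. Over all genes 0.358% and 0% were called. The Lcn2 call held in 8 of 13 alternatives and was lost under edgeR. Here too Lcn2 entered the test only through the knockout libraries, its control mean being 9.20. Reg3b, Reg3g, Muc1 and Fut2 are epithelial genes and Lcn2 is also made by neutrophils. The epithelial marker sum was 1340 to 1690 CPM in proximal and 735 to 1440 in distal GS4T libraries against 21.9 to 557 and 66.9 to 186 in GWTT, and its part in these values was not tested.

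Whether the segments differed was asked on a common scale of CPM, with all 12 stromal libraries in one limma fit. No gene of the 10 was called between proximal and distal cells over the 3 genotypes, against 0.671% of all genes, and none with the 2-fold limit at an unadjusted p under 0.05, by edgeR or by DESeq2. Il6ra came nearest: it was at 139 and 103 CPM in proximal and 82.2 and 80.3 in distal GWTT cells, and was 0.63 ± 0.13 higher in proximal cells on the log2 scale over the 3 genotypes (adjusted p = 0.048), with each of 3 genotypes between 0.56 and 0.70. With single libraries left out the adjusted p of Il6ra ran from 0.022 to 0.15.
Within GWTT no gene of the 10 was called, against 1.32% of all genes. Osm differed by -1.45 ± 0.50 (proximal minus distal) in control cells (2.20 and 2.10 against 5.60 and 6.56 CPM, adjusted p = 0.21), the macrophage marker sum being 201 to 325 in these libraries and 675 to 781 in the distal ones, and Il6 was 1.31 ± 0.65 higher (118 and 71.8 against 29.2 and 46.9, adjusted p = 0.41). With the 2-fold limit Osm passed an unadjusted p under 0.05, as did 6.40% of all genes, and neither edgeR nor DESeq2 called a member. No knockout effect on the 10 genes was called as different between segments (0.0326% of all genes in GS4T and 0.0261% in GA3T), with none by edgeR or DESeq2 and, at an unadjusted p under 0.05 with the 2-fold limit, none in GS4T and Osm in GA3T (3.37% of all genes). The GS4T effect on Il6 differed by -1.85 ± 0.93 (proximal minus distal, adjusted p = 0.63), that on Il11 by -1.79 ± 1.03, that on Osm by 1.58 ± 0.71 and that on Socs3 by -0.74 ± 0.35.
Between the knockouts, none of the 10 genes was called in the proximal (0.0782% of all genes) or the distal colon (2.12%), nor by edgeR, DESeq2 or at an unadjusted p under 0.05 with the 2-fold limit. Il11ra1 was nearest in distal cells, at 76.2 and 83.0 CPM in GS4T and 171 and 115 in GA3T (-0.82 ± 0.19, adjusted p = 0.056). Distal Il11 differed by 1.37 ± 0.73 (adjusted p = 0.34), with GS4T libraries at 125 and 48.6 and GA3T at 12.2 and 73.7 CPM. By the likeness of log2 CPM over the 12 stromal libraries, the genes closest to Il11 were Il1rl1 (the IL-33 receptor, Pearson r = 0.978), Lcp2 (0.972) and Golga7 (0.964), a description over libraries that share genotype and segment.

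Goblet cells were compared in the same way to see whether the family's genes followed stromal gene loss in the neighbouring epithelium. Limma called none of the 7 members tested in proximal GS4M2 cells (0.325% of all genes), none of 6 in distal GS4M2 (0%), none of 7 in proximal GA3M2 (0.0899%) and none of 7 in distal GA3M2 cells (0%). By an unadjusted p under 0.05 and the 2-fold limit the counts were 2 in proximal GS4M2 (Osmr and Lifr, against 4.28% of all genes), 1 in distal GS4M2 (Il6ra, 2.70%), 1 in proximal GA3M2 (Osmr, 6.83%) and 0 in distal GA3M2 (4.12%). EdgeR called 1 (Osmr in proximal GS4M2, 0.385% of all genes). DESeq2 called Osmr in proximal GS4M2 (2.04%) and GA3M2 (3.23%) and Il6ra in distal GS4M2 (1.13%). Of the members tested in proximal cells, 5 of 7 in GS4M2 and 3 of 7 in GA3M2 did not overlap between groups, against 50.2% and 52.1% of all genes.
The goblet marker sum was 29600 to 32600 CPM in proximal and 33700 to 61200 in distal GWTM2 libraries, 35200 to 39100 and 39900 to 47700 in GS4M2, but 8880 to 12300 and 12200 to 21000 in GA3M2. The neutrophil markers that could be read, 4 of 8 but only Ly6g in proximal GS4M2 and Ly6g with S100a8 in distal GS4M2 cells, summed to 0.63 to 1.31 CPM in proximal and 8.01 to 10.0 in distal GWTM2, 5.94 to 13.4 and 15.3 to 33.5 in GS4M2, and 20.7 to 83.0 and 74.2 to 127 in GA3M2 libraries. Their part in the values that follow was not tested.
Osmr entered the proximal tests only through the knockout libraries, with control means under the filter of 10, so that it could be tested only if it differed. In proximal cells it read 8.58 and 2.16 normalized counts in GWTM2 (10 and 2 reads) and 92.5 and 105 in GS4M2, a log2 difference of 4.18 ± 0.60 (adjusted p = 0.0616). It read 9.14 and 2.28 against 56.4 and 51.7 in GA3M2 (3.25 ± 0.69, adjusted p = 0.166). All 4 proximal knockout libraries were above both controls. Without either GS4M2 library the adjusted p was 0.12 or 0.19, and without GWTM2 library 1, which left 1 control of 2 reads assumed to vary like the other group, it was 0.014.
In distal cells the 2 GWTM2 libraries stood apart from each other, with Osmr at 50.2 and 2.26, Socs3 at 1528 and 152 and Lif at 424.5 and 79.2 normalized counts. Library 1, the female one, was the high one for all 3. Distal GS4M2 libraries read 22.8 and 55.15 for Osmr, 668 and 992 for Socs3 and 155 and 179 for Lif, between or near those extremes. With both controls the differences in Socs3 were 0.75 ± 1.06 in GS4M2 and 1.25 ± 1.04 in GA3M2. Without GWTM2 library 1 the lone control was assumed to vary like the other groups: Socs3 was then called in both (2.42 and 2.90, adjusted p = 0.021 and 2.3e-06) and Osmr (4.30) and Lif (1.39) in GA3M2, and without library 2 the Socs3 differences were -0.91 and -0.41.
In proximal goblet cells Socs3 read 552 and 362 in GWTM2, 589.6 and 764 in GS4M2 (0.59 ± 0.23, adjusted p = 0.29) and, in its own table, 588 and 382 against 942 and 859 in GA3M2 (0.92 ± 0.25, adjusted p = 0.228). Lifr, which entered this test only through the controls, read 14.6 and 38.9 in GWTM2 and 7.36 and 5.09 in GS4M2 (-1.81 ± 0.63, adjusted p = 0.236). Il6ra read 79.8 and 33.5 against 30.5 and 17.3 (-1.14 ± 0.52, adjusted p = 0.346) in the proximal and 244 and 201.5 against 103 and 114 (-1.02 ± 0.22, adjusted p = 0.376) in the distal colon. Il11ra1 and Il6st differed by at most 0.36 in any goblet comparison. Of the Stat3 targets, 1 of 17 was called in proximal GS4M2 cells, Saa1, which rose from a mean of 329 to 3140.2 (3.19 ± 0.32, adjusted p = 0.0314), and none in the other 3 goblet comparisons.

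**Figure D4:**
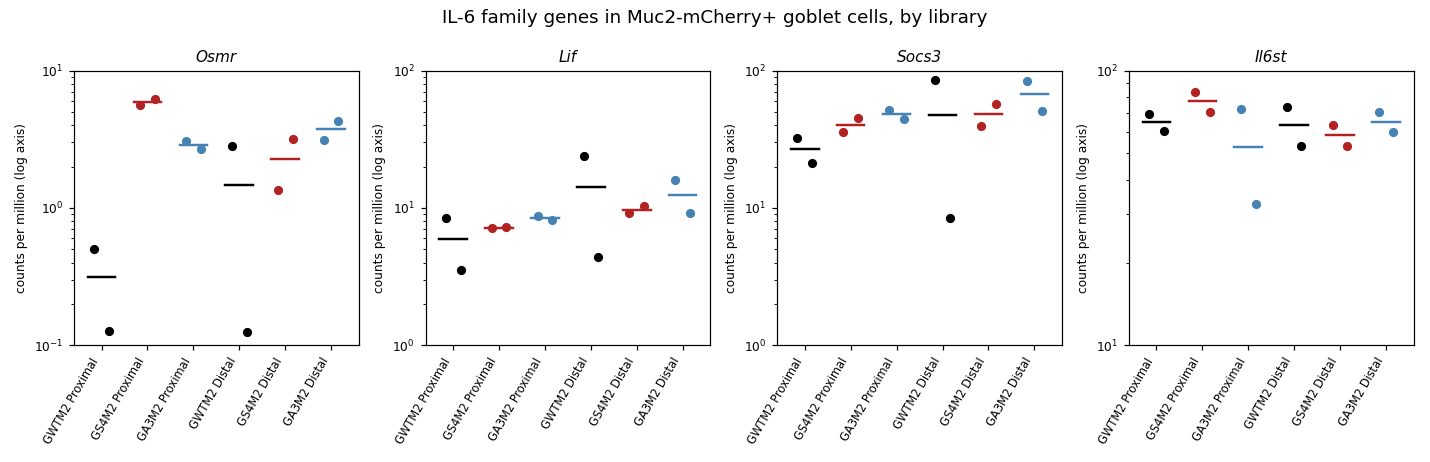
CPM (log axis) of Osmr, Lif, Socs3 and Il6st in the 12 Muc2+ goblet libraries, where points are libraries and lines group means (black GWTM2, red GS4M2, blue GA3M2). Osmr lay higher in the 4 proximal knockout than in the 2 proximal control libraries, and in the distal colon the 2 control libraries stood at 0.125 and 2.83 CPM.

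The organoid libraries addressed what IL-1 and IL-17A do to the same genes in epithelium alone. Before these values it has to be said that 2 control libraries are listed at both times. Control 2 at 12 h and control 1 at 72 h had the same reads at 99.99% of genes, as had control 4 at both times. By their reads there were thus 4 distinct control libraries in all. Of these, controls 2 and 4 at 72 h were near-identical, with a chi-squared between their reads of 3.303 per gene. So were libraries 3 and 4 at 12 h under IL-1 (3.023) and under IL-17A (3.325). The other pairs within an organoid group lay at 25.67 to 211.4. Whether near-identical libraries came from the same culture was not tested, so a group of 3 may hold fewer independent cultures. The reads also do not show at which time the 2 repeated controls were taken. Cytokine and hours in culture therefore cannot be told apart in the comparisons that use them. These include all comparisons with controls at 72 h and all those of effects between times. Organoid libraries of both sexes were mixed in every group but IL-17A at 72 h, where all 3 were male by Xist and Y-linked genes. At 12 h limma called none of 6 members under IL-1 (0.0542% of all genes) and none of 6 under IL-17A (0.0385%). Lif passed an unadjusted p under 0.05 in both, against 0.922% of all genes under IL-1 and 1.08% under IL-17A, and neither edgeR nor DESeq2 called a member. The groups did not overlap for 2 of 6 and 1 of 6 members, against 9.53% and 10.9% of all genes. At 72 h 3 of 7 were called under IL-1 (Lif, Socs3 and Osmr, all higher) against 23.0% of all genes, and none of 6 under IL-17A against 7.94%. These counts are over different genes: Osmr entered the IL-1 test only through the treated libraries and was not tested under IL-17A. Of the 6 members tested under both, 2 were called under IL-1. Under IL-17A at 72 h, Lif and Socs3 passed an unadjusted p under 0.05 with the 2-fold limit (20.6% of all genes), DESeq2 called both (17.7%) and edgeR none. At 72 h the groups did not overlap for 5 of 7 members under IL-1 and 3 of 6 under IL-17A, against 54.7% and 45.3% of all genes.

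Lif was higher under both cytokines at both times. At 12 h it read 259, 181 and 394 normalized counts in controls and 526.5, 610.2 and 617 under IL-1 (log2 difference 1.14 ± 0.28, adjusted p = 0.695). In the IL-17A table the controls read 271.5, 189 and 413 and the treated libraries 449, 653 and 643.5, a difference of 1.05 ± 0.30 (adjusted p = 0.782). All treated libraries lay above all controls of their table at 12 h. With the replicate number as a block, the limma differences were 0.83 under IL-1 (adjusted p = 3.8e-05) and 0.68 under IL-17A (adjusted p = 2.3e-07). Both were under the 2-fold limit and not called. At 12 h, controls and treated libraries shared numbers 1 and 4, which deviated together (r = 0.71 to 0.767). Library 4 of each cytokine was near-identical to its library 3.
At 72 h Lif read 171, 379 and 378 in controls and 1015, 865 and 447.5 under IL-1, 2.51 times higher in the mean (1.33 ± 0.40, adjusted p = 0.0338). Under IL-17A it read 838, 749.9 and 500.1 against 171, 377 and 377 (1.23 ± 0.37, adjusted p = 0.0656). The groups did not overlap on this scale, but in CPM the lowest IL-1 library (23.2) and the lowest IL-17A library (24.3) fell among the controls (11.3 to 25.5). Without the control libraries listed at both times, which left 1 control assumed to vary like the rest, the IL-1 difference in Lif was 0.95 (adjusted p = 0.25). It was 1.87 (adjusted p = 0.025) with the replicate number as a block and 1.52 (adjusted p = 0.0502) with near-identical libraries averaged. The call was also lost without control 1, IL-1 library 1 or IL-1 library 2. At 72 h the controls and each cytokine group shared 2 numbers only. Their deviations had r of 0.153 and 0.236 under IL-1 and -0.15 and -0.114 under IL-17A, so the block is not a pairing.

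Socs3 was not higher at 12 h, at 67.5, 93.6 and 42.4 in controls and 86.8, 43.5 and 34.5 under IL-1 (-0.34 ± 0.43), with IL-17A libraries at 94.7, 45.5 and 50.4 (-0.17 ± 0.40). At 72 h it read 88.7, 35.2 and 40.7 in controls and 114, 122 and 203 under IL-1, 2.67 times higher (1.47 ± 0.42, adjusted p = 0.0281). Under IL-17A it read 103, 116 and 224 against 88.5, 35.0 and 40.6 (1.45 ± 0.47, adjusted p = 0.0763). The treated libraries lay above the controls in both tables, although in CPM the lowest IL-17A library (5.49) was under the highest control (5.87). The IL-1 call for Socs3 was lost without control 2 or 4, without IL-1 library 3 and without the repeated controls (1.97, adjusted p = 0.098). It was also lost with the replicate block (1.06, adjusted p = 0.19) and with near-identical libraries averaged (1.27, adjusted p = 0.095).
Osmr, at 2.66, 5.72 and 5.94 normalized counts (3 to 7 reads) in controls, read 32.5, 13.9 and 15.4 under IL-1 at 72 h (14 to 27 reads). The log2 difference was 1.86 ± 0.58 (adjusted p = 0.0361), and the call was lost without any one control, without IL-1 library 1 or 3, with sex as a covariate and without the repeated controls (1.59, adjusted p = 0.29). With the replicate block it was 2.17 (adjusted p = 0.17), and with near-identical libraries averaged 2.01 (adjusted p = 0.079), neither of them called.
Il6st read 948, 980.3 and 938 in controls and 755, 780.2 and 688 under IL-1 at 72 h, 0.775 times the control (-0.37 ± 0.13, adjusted p = 0.0618). At 12 h it had been 848, 1000.2 and 978 in controls and 1174, 1345 and 1227 under IL-1 (0.41 ± 0.12, adjusted p = 0.886), so that treated libraries lay above the controls at 12 h and below them at 72 h. Under IL-17A at 72 h the libraries read 628, 1152 and 656, on both sides of the controls (946, 975 and 936). Il6ra, Il11ra1 and Lifr were not called, with differences between -0.68 and 0.58, and Il11 was listed at 1 to 7 reads per library.

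**Figure D5:**
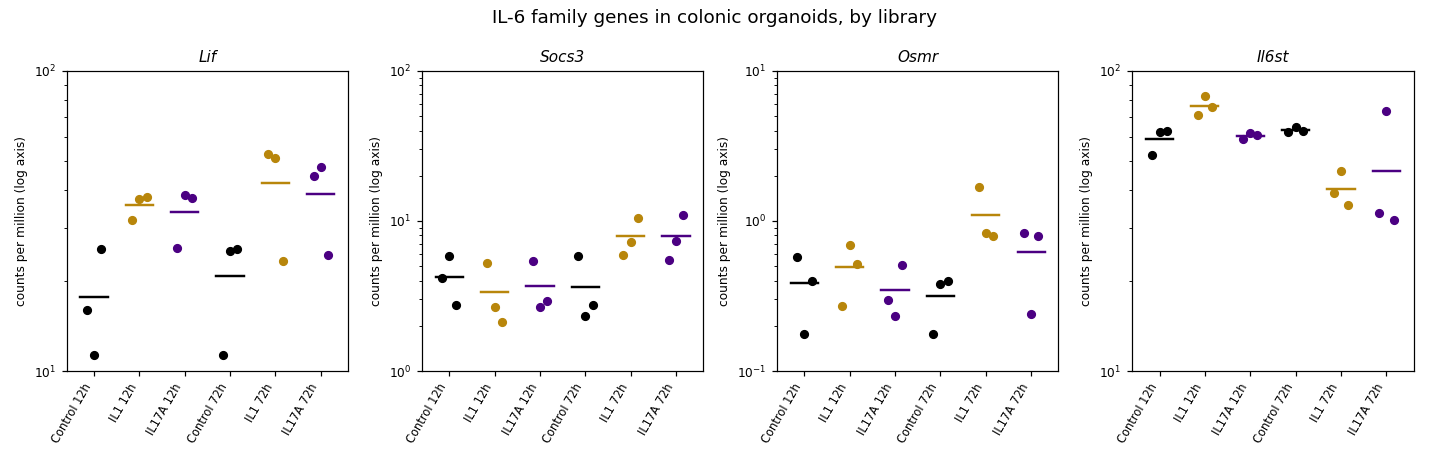
CPM (log axis) of Lif, Socs3, Osmr and Il6st in the 18 organoid libraries, where points are libraries and lines group means (black control, ochre IL-1, indigo IL-17A). Socs3 lay at 5.49 to 10.9 CPM in the 6 treated libraries at 72 h and at 2.12 to 5.87 in the others, and 2 control libraries appear at both times.

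The 2 cytokines were compared directly in one fit of all 18 libraries. None of 7 members was called between IL-1 and IL-17A at 12 h (0% of all genes) or 72 h (0.0151%), and none by edgeR or at an unadjusted p under 0.05 with the 2-fold limit. For Lif the difference was 0.10 ± 0.39 at 12 h (95% interval -0.74 to 0.93) and 0.09 ± 0.39 at 72 h (-0.74 to 0.92). For Socs3 it was -0.17 ± 0.44 at 12 h (-1.10 to 0.77) and 0.01 ± 0.44 at 72 h (-0.93 to 0.94). Between 12 h and 72 h the IL-1 effect differed for 1 of 7 members, Il6st (-1.03 ± 0.33, adjusted p = 0.0498), against 10.1% of all genes, and the IL-17A effect for none against 0.446%. This fit counts the 2 repeated controls at both times. With each distinct library entered once, controls of both times were pooled, so the contrast became IL-1 at 72 h minus IL-1 at 12 h. In that setting Il6st differed by -0.93 (adjusted p = 0.010), under the 2-fold limit and not called. Socs3 was called in its place (1.276, adjusted p = 0.031). The Il6st call was also lost with edgeR (-0.75, adjusted p = 0.060) and with sex as a covariate (-0.94, adjusted p = 0.084) and held with the replicate block (-1.13, adjusted p = 0.011). The median of all genes in these contrasts was -0.27 and -0.25. EdgeR called no member in either, and Socs3 passed an unadjusted p under 0.05 with the 2-fold limit in both (22.5% of all genes under IL-1 and 17.5% under IL-17A), with differences of 1.55 ± 0.62 under IL-1 (adjusted p = 0.091) and 1.37 ± 0.62 under IL-17A (adjusted p = 0.15).
In the pathway lists, Jak2 rose under both cytokines at 72 h (1.34 ± 0.24, adjusted p = 0.00623 under IL-1 and 1.35 ± 0.31, adjusted p = 0.0464 under IL-17A) and was the only one of 11 kinases, Stats and shedding enzymes called. Over all genes 23.0% were called under IL-1 and 7.94% under IL-17A. The IL-1 call for Jak2 held in 16 of 17 alternatives and was lost without the repeated controls (adjusted p = 0.12), and the IL-17A call held in 8 of 17 (adjusted p up to 0.46). The inhibitor Cish rose under IL-1 (1.38 ± 0.39, adjusted p = 0.0253), in 11 of 17 alternatives. Of the Stat3 targets, 9 of 15 were called under IL-1 at 72 h, against 23.0% of all genes. The list median was 1.03, against -0.0009 over all genes. Saa1 rose from a mean of 139.6 to 3941 (4.48 ± 0.50), and Lcn2 (6.45 ± 0.51), Muc1 (4.02 ± 0.75), Saa3, Junb (2.20 ± 0.18), Cebpd, Fos and Pim1 also rose, while Myc fell (-1.36 ± 0.30). Under IL-17A 6 of 16 were called, against 7.94% of all genes, with a list median of 1.01 against -0.006 over all genes. All 6 were higher, among them Lcn2 (5.71 ± 0.55), Muc1 (4.27 ± 0.83) and Cebpd (2.26 ± 0.17). Saa3 and Lcn2 under IL-1 and Lcn2 and Lrg1 under IL-17A entered the test only through the treated libraries. The IL-17A calls held in 10 of 17 alternatives for Cebpd, 9 of 17 for Muc1, 9 of 16 for Lcn2, 8 of 17 for Junb, 7 of 17 for Fos and 3 of 16 for Lrg1. Jak2 and all 6 of these targets lost their IL-17A calls with the replicate block, with sex as a covariate, without the repeated controls and with near-identical libraries averaged. At 12 h none of 14 (IL-1) or 12 (IL-17A) targets was called. Under IL-1, Fos was called in 10 of 17 alternatives, Pim1 in 8 of 17, Saa3 in 14 of 16, Myc in 15 of 17 and the rest in 16 of 17. All 9 targets called under IL-1 lost their calls without the repeated controls, which left 1 control. Fos and Junb were thus higher in cytokine-treated organoids at 72 h and lower in GS4T stromal cells, each against its own controls. Over the 18 organoid libraries the genes whose log2 CPM lay closest to Socs3 were Trpm4 (r = 0.972), Cgn (0.964) and Crb3 (0.96), given as a description.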

How the data were processed

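Messenger RNA of 42 libraries was sequenced from a SMARTER kit. Per the labels and the study's methods, the authors aligned uniquely mapping reads to mm10 with STAR 2.5.3 and deposited normalized counts from DESeq2 1.28.1 (a count signal scaled by size factors, not raw counts). The counter, annotation and strand setting are not given in the sources used here. Dividing each deposited signal column by its smallest step returned whole reads for 100% of values within 0.1, at 14222902 to 23686940 reads per library, and counting error alone is small beside the spread between libraries except at a few reads. In 2 tables, 4 rows each named no gene (20.9 to 28.2% of values) and were left out. Of the control libraries, 14 were listed in 2 tables with the same reads at 99.97% of genes or more.

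Samples were grouped by their labels. Each table was tested alone with limma 3.58.1 (R 4.3.3) on log2(normalized count + 1) for genes with a mean of at least 10, with Benjamini-Hochberg adjustment over all genes tested. Fold changes on this scale understate low genes. Segments, genotypes and cytokines were compared by limma on log2(CPM + 0.1) from the recovered reads, with a mean of at least 0.5. The fits were tested on simulated data. Alternatives included edgeR 4.0.16 and DESeq2 1.42.0 on recovered reads, other pseudocounts, filters and scalings, a replicate block, library sex and leaving out each library. Those on repeated or near-identical organoid libraries, and library sex in the common-scale fits, were chosen after seeing the data. Named genes were the 10 genes in every table, and pathway genes from the lists where called. Genes and lists were chosen with earlier results of these data known. In IL-1 and IL-17A organoids, the 3 shared replicate numbers deviated together (r = 0.783 to 0.94 at 12 h and 0.546 to 0.826 at 72 h). So did numbers shared by proximal and distal stromal cells of a genotype (r = 0.27 to 0.494). These were also fitted with the number as a block. Some libraries of the same number differed in sex, so the block is not a proven pairing.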

Additional observations from a re-analysis of the deposited data

Results flagged for a closer look

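The effect of IL-1 on Il6st differed between 12 h and 72 h in a test of the difference itself, by -1.0285 on the log2 scale (SE 0.33, limma adjusted p = 0.0498), where the median gene differed by -0.27. The IL-1 libraries lay above the controls at 12 h and below them at 72 h. The fit counts the 2 repeated controls at both times, so a change in IL-1 effect cannot be told apart from hours in culture. With each distinct library entered once, controls of both times were pooled. That setting compared IL-1 at 72 h with IL-1 at 12 h directly. Il6st then differed by -0.93 (adjusted p = 0.010), under the 2-fold limit and not called. Counting that setting, the difference was called in 4 of 22 alternatives, with the same sign in all 22 (-1.13 to -0.75, adjusted p from 0.0031 to 0.13).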

How the results depend on the processing

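Values are members called, or log2 differences for single genes. A sex present in only 1 of the compared groups is taken up by the sex covariate. With it, the knockout side in distal GA3T cells rested on 1 library. So did the control side in proximal GS4T cells, in all goblet comparisons and under IL-17A at 72 h. In proximal GA3T cells 1 member was called, against 3 with unadjusted p or DESeq2 and 0 with a pseudocount of 0.1, upper-quartile scaling or edgeR. In distal GA3T cells the count of 0 became 2 with unadjusted p or DESeq2 and 5 with sex as a covariate. In proximal GS4M2 cells it went from 0 to 2 with unadjusted p and to 1 with a pseudocount of 10, edgeR, DESeq2, the replicate block or sex. In distal GS4M2 cells it was 1 with unadjusted p, DESeq2 or sex, in proximal GA3M2 cells 1 with unadjusted p, DESeq2 or the replicate block, and in distal GA3M2 cells 3 with sex. At 12 h it was 1 with unadjusted p for each cytokine. Under IL-1 at 72 h the 3 calls became 1 with the replicate block, and 0 without the repeated controls or with near-identical libraries averaged. Under IL-17A at 72 h, 0 became 2 with unadjusted p or DESeq2. The change in IL-1 effect went from 1 to 0 with edgeR or sex. The block changed no call of a member between cytokines or segments, where libraries of the same number deviated together. The same number did not always mean the same animal or culture. GWTT library 1 was male in proximal and female in distal cells. Library 2 at 72 h was female under IL-1 and male under IL-17A. The knockouts and their controls share 2 numbers only (r from -0.03 to 0.418). Their block fits are an alternative setting and do not show that the libraries were paired. In proximal goblet cells, where the block added a call of Osmr, r was -0.0219 in GS4M2 and 0.149 in GA3M2. At 72 h the controls and each cytokine group also share 2 numbers only (r from -0.15 to 0.236). Some differences changed sign: Il6st in distal GA3T (-0.0081, upper-quartile scaling), Socs3 in distal GS4M2 (-0.021 with edgeR, -0.017 with DESeq2), Lif in distal GS4M2 (1.06 with sex) and distal GA3M2 (-0.20 with edgeR, -0.19 with DESeq2), Socs3 at 12 h under IL-1 (0.034 with the replicate block) and IL-17A (0.30 with the block, 0.14 with sex), and IL-1 against IL-17A at 72 h for Lif (-0.14 with sex) and Socs3 (-0.0039 with edgeR). None of these had been called, and the cause was not tested.
With each library left out in turn, members called ran from 0 to 4 in proximal and 1 to 4 in distal GS4T, 0 to 2 in proximal and 0 to 5 in distal GA3T, 0 to 1 in each GS4M2 segment, 0 to 3 in distal GA3M2, 1 to 2 under IL-1 at 72 h, 0 to 3 between distal knockouts, and 0 to 1 for the IL-1 effect over time. Signs changed for Il6 (-0.19 to 1.123) and Il6st (-0.026 to 0.12) in distal GS4T, and for Lif (-0.34 to 0.29), Il11ra1 (-0.085 to 0.32) and Il6st (-0.16 to 0.0032) in proximal GA3T. In distal GA3T they changed for Il6 (-0.14 to 1.51), Lif (-0.41 to 1.27), Il11ra1 (-0.36 to 0.11), Osmr (-0.20 to 1.23) and Il6st (-0.26 to 0.27). In goblet cells they changed for Lif in proximal GS4M2 (-0.26 to 0.98), Il6ra in proximal GA3M2 (-0.46 to 0.78), Osmr (-0.49 to 3.48), Socs3 (-0.91 to 2.42) and Lif (-1.35 to 1.06) in distal GS4M2, and Socs3 (-0.41 to 2.90) and Lif (-1.003 to 1.39) in distal GA3M2. They also changed for Socs3 under IL-17A at 12 h (-0.49 to 0.098), for the GA3T effect on Il11 between segments (-1.48 to 1.10), and between cytokines for Lif (-0.092 to 0.20) and Socs3 (-0.54 to 0.14) at 12 h and Lif (-0.22 to 0.48) and Socs3 (-0.22 to 0.26) at 72 h.
Over all genes, the 55 calls in proximal GA3T became 0 with edgeR and 966 with DESeq2, 0 in distal GA3T up to 776 with DESeq2, 43 in proximal GS4M2 up to 270 with DESeq2, 12 in proximal GA3M2 up to 699 with the block, and 0 in distal GS4M2 and GA3M2 up to 225 and 658 with sex. The 2998 genes under IL-1 and 1038 under IL-17A at 72 h fell to 1 without the repeated controls and 3 with near-identical libraries averaged. At 12 h the block gave 100 for IL-1 (7 without it) and 120 for IL-17A (5). Leaving out 1 library took proximal GS4T from 1472 to between 0 and 2107, and distal GS4T from 2130 to between 947 and 1675. With 2 libraries per group, depth limits only genes at a few reads, such as Osmr in epithelium.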
